A study of Arabidopsis thaliana with 48 samples.

Results

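The genes described here are bHLH35 (AT5G57150) and its close relative bHLH27 (AT4G29930), 2 of the 32824 gene identifiers listed in both deposited tables. They were taken by identifier, with earlier results of these data known. Transcripts were measured by RNA sequencing of whole Arabidopsis thaliana seedlings in 48 libraries, 3 for each of 8 treatments in each of 2 genotypes. The genotypes were the wild type Columbia 0 (Col0) and a bHLH35 mutant in the Col0 background. The allele and the number of lines of the mutant are not given in the sources used here. All seedlings were 7 days old and grown on ½ MS plates. Control seedlings had no salt, 150 µE of light and 21 °C. Salt (S) was 50 mM in the medium from germination, whereas high light (HL, 700 µE) and heat (HS, 33 °C) lasted 1.5 h. The remaining treatments combined these, as S+HL, S+HS, HL+HS and, with all 3, S+HL+HS. Levels are in FPKM, fragments scaled to the length of the transcript and to the depth of the library, so the genes can be set side by side per length.

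Basic helix-loop-helix (bHLH) proteins are transcription factors that pair through a helix-loop-helix region and bind DNA through a basic region. Their usual DNA target is the E-box, CANNTG, of which the G-box, CACGTG, is a form. In plants the family includes regulators of light and hormone responses, iron uptake, pollen development and stomatal development. Pairs of closely related members often overlap in function, which is why the level of a relative is of interest where a member is mutated.

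Both genes lie on the forward strand in the RefSeq annotation of assembly TAIR10.1. The gene bHLH35 spans chr5:23152174-23155066, with 5 annotated transcripts of 711 to 2351 spliced bases. The gene bHLH27 spans chr4:14643994-14647637, with 7 transcripts of 915 to 2780 spliced bases. A pair of internal coding exons has the same length in both genes. These exons are shown because equal lengths let them be compared base by base. They also bear on whether reads of one gene could be counted for the other. Exons of unequal length were not compared in this way. Bases that are identical at the same position in both genes are in capitals. The first pair, of 166 bases, was identical at 96 positions (57.8%) and lies at chr5:23152523-23152688 and chr4:14644310-14644475.
bHLH35, 166-base exon: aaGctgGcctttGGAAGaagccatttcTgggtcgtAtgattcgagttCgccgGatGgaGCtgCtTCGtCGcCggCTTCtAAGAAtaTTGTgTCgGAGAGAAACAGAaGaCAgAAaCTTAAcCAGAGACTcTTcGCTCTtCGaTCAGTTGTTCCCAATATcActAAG
bHLH27, 166-base exon: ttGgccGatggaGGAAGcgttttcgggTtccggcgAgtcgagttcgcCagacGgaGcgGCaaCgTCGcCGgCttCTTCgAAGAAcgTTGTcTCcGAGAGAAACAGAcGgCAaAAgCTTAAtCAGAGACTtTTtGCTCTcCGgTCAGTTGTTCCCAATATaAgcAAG
The second pair, of 171 bases, was identical at 118 positions (69.0%) and lies at chr5:23153084-23153254 and chr4:14645218-14645388.
bHLH35, 171-base exon: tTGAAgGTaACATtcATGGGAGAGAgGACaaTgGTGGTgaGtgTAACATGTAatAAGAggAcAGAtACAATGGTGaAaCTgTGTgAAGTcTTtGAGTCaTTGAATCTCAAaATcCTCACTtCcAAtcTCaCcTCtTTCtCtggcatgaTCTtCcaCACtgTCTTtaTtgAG
bHLH27, 171-base exon: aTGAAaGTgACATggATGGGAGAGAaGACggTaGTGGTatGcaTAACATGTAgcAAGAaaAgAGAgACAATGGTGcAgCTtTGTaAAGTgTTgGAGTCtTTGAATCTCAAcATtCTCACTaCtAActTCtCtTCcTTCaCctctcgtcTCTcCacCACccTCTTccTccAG

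The longest run of bases shared by any transcript of one gene and any transcript of the other was 18 bases, against reads of 150 bases. No stretch of 50 bases occurred in the transcripts of both. The last 102 bases of bHLH35 overlap AT5G57160 (ATLIG4, DNA ligase IV) on the opposite strand. Whether counting used strand is not given in the sources used here, so reads from that overlap cannot be assigned to either gene. AT5G57160 itself stood at 6.26 ± 0.0602 FPKM in Col0 Control and 4.44 ± 0.545 FPKM in Col0 S+HS (SD, n = 3), the treatment in which bHLH35 was highest. No annotated gene overlaps bHLH27.

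The 250 bases before the start of each gene are given next, because both genes rose together under stress. Capitals mark matches to CANNTG and CACGTG on either strand. The windows lie at chr5:23151924-23152173 and chr4:14643744-14643993 of TAIR10.1, on the forward strand.
bHLH35, 250 bases upstream: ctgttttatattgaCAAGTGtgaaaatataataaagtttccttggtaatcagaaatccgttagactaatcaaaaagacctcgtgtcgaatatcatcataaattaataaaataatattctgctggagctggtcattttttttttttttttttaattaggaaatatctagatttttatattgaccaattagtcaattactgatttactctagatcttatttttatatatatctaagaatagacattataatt
bHLH27, 250 bases upstream: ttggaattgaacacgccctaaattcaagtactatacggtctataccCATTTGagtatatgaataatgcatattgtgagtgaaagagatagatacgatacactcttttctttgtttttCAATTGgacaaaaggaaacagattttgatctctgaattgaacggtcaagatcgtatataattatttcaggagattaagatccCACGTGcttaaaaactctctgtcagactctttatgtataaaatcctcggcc
The bHLH27 window held a CACGTG between 51 and 46 bases before the start. Of 27443 windows of this length before annotated genes, 6.49% held CACGTG. The bHLH35 window held none. CANNTG matched 3 times in bHLH27, the CACGTG included, and once in bHLH35, and 55.3% of all windows held it. ACGTG, the core of abscisic acid response elements, matched only inside the CACGTG of bHLH27, once on each strand, and 22.9% of windows held it. Neither window held CCGAC, the core of dehydration response elements (11.97% of windows), or GAANNTTC, a core of heat shock elements (9.55% of windows). These matches describe letters only.

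Depth was read from the steps between low FPKM values, where a step is worth 1 fragment. Its median over the libraries was 24.7 M fragments (M for mega), with 19.1 M the lowest and 45.3 M the highest. Of the low values, 88.1% to 96.8% per library lay within 0.1 of a whole fragment. In Col0 the value of bHLH35 that rested on the fewest fragments stood for 210 at the length of the shortest transcript (Control replicate 1) and for 1132 at that of the longest (Control replicate 2). For bHLH27 in the mutant the lowest value stood for 20 to 80 fragments, a counting error of 22.4% to 11.2%, which is the least precise value here. Summed FPKM of 3 shoot markers (RBCS1A, CAB1 and CA1) lay between 17979 and 30971 in every library, as in green seedlings. Summed FPKM of 4 root markers lay between 702 and 4231, so roots were in the material. The labels do not say that replicates came from separate cultures, so p-values measure the spread between these samples, which may be technical. In whole seedlings, fewer cells of a type and less RNA per cell cannot be told apart.

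In Col0, bHLH35 was at its lowest in Control and rose in all 7 stress treatments. Its Control libraries held 21.99, 20.9 and 27.7 FPKM. Salt alone gave 42.5, 35.5 and 29.6 FPKM, and high light alone gave 42.3, 44.9 and 50.7 FPKM. Both single stresses therefore lay above every Control library, salt by a small margin in 1 library. Heat alone gave 75.3, 87.3 and 93.4 FPKM. HL+HS gave 76.5, 66.4 and 69.8 FPKM, and S+HL gave 43.4, 53.9 and 57.5 FPKM. Treatments with heat stood clearly above those without it, with no overlap between any of the 12 libraries with heat and the 12 without. How many other genes separate in this way was not counted. In Col0, 18.8% of all genes were called higher for the mean difference between treatments with and without heat. S+HS gave 95.3, 84.4 and 83.6 FPKM, and S+HL+HS gave 75.0, 81.8 and 78.9 FPKM.

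The means ran from 23.5 ± 3.66 FPKM in Control to 87.8 ± 6.55 FPKM in S+HS (SD, n = 3), a ratio of 3.73. On the log2(FPKM + 1) scale, limma gave a change of 0.58 in salt (SE 0.132, adjusted p = 0.00387). It gave 0.94 in high light (adjusted p = 5.6e-05) and 1.82 in heat (adjusted p = 6.4e-09). The pairs of stresses gave 1.10 (S+HL), 1.56 (HL+HS) and 1.86 (S+HS), and all 3 together gave 1.71, with limma adjusted p-values from 2.3e-09 to 2.3e-06. All 7 changes were therefore called, at an adjusted p under 0.05 over 20742 genes. The share of all genes called higher was 13.6% in S, 10% in HL, 15% in HS and 12% in HL+HS. With salt in combination it was 23.2% (S+HL), 26% (S+HS) and 23.6% (all 3 stresses).

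**Figure D1:**
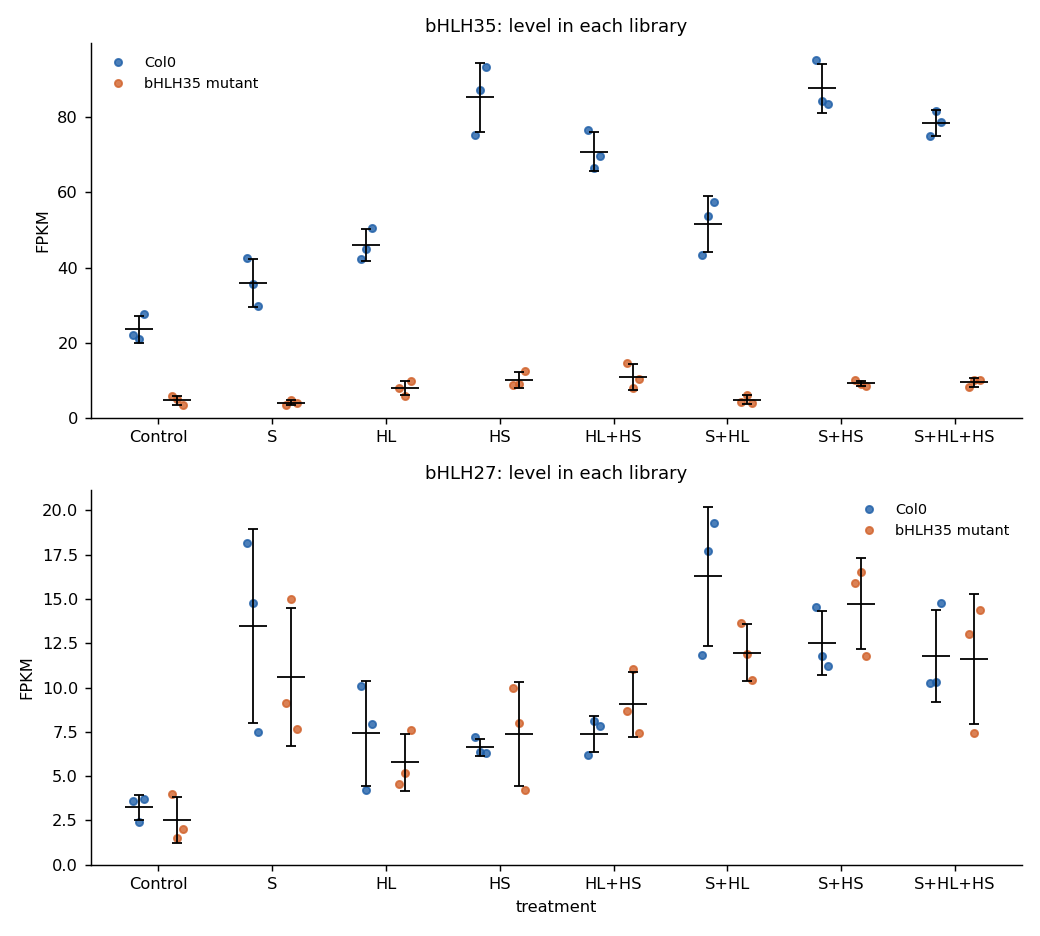
FPKM of bHLH35 (top) and bHLH27 (bottom) in each of the 48 libraries, by treatment (x axis), with Col0 in blue and the mutant in orange. Black marks are means and bars are SD over 3 libraries; in Col0 every bHLH35 library with heat lies above every library without heat, and in the mutant bHLH35 stays under 15 FPKM.

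Placed in order of mean level, Col0 bHLH35 ran Control, S, HL, S+HL, HL+HS, S+HL+HS, HS and S+HS. Among the 7 steps between neighbours in this order, 2 were called. These were Control to S (log2 0.58) and S+HL to HL+HS (log2 0.46, SE 0.132, adjusted p = 0.0103). In the second step heat enters and salt leaves, and 9.7% of genes were called in that direction. Without S+HL replicate 1 the second step was 0.34 and not called (adjusted p = 0.0685). Over all 28 pairs of treatments 20 were called, where the share of all genes called in a pair had a median of 24.55% and ran from 2.74% to 44.9%.

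The largest mean difference of bHLH35 was that for heat. Taken as the mean of the 4 treatments with a stress less the 4 without it, heat gave a log2 difference of 1.08 (SE 0.066, adjusted p = 1.2e-10). Light gave 0.26 (SE 0.066, adjusted p = 0.00562) and salt gave 0.23 (SE 0.066, adjusted p = 0.00692). The light value averages over unlike steps. Without heat the mean was higher with light, at 46.0 FPKM in HL against 23.5 in Control and 51.6 in S+HL against 35.9 in S. With heat it was lower with light, at 70.9 FPKM in HL+HS against 85.3 in HS and 78.6 in S+HL+HS against 87.8 in S+HS. Of all genes, 18.8% were called higher for heat, 13.3% for light and 33.4% for salt. The salt value depended on scaling. The median of all genes was 0.11 higher with salt than without it as deposited, and with median-of-ratios scaling the salt difference of bHLH35 was 0.11 and not called (adjusted p = 0.185).

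Heat added to HL, S or S+HL gave called rises of bHLH35. From HL to HL+HS the change was 0.62 (limma adjusted p = 0.00725), from S to S+HS it was 1.28 (5.0e-07) and from S+HL to S+HL+HS it was 0.61 (0.00524). With only the contrasted groups the step from HL was not called (adjusted p = 0.0885). Of all genes, 2.69%, 13.7% and 4.65% were called higher in these 3 steps. Adding salt to a treatment that already had light or heat gave 0.16 from HL to S+HL, 0.043 from HS to S+HS and 0.15 from HL+HS to S+HL+HS. None of these 3 was called, with limma adjusted p-values from 0.451 to 0.854. Their 95% intervals ran from -0.23 to 0.43, so a change above 0.43 lies outside them.

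In HL+HS and S+HL+HS, bHLH35 lay below the sum of its single responses. In Col0 HL+HS the level was below the sum of the HL and HS changes on the log2 scale (difference -1.20, SE 0.187, limma adjusted p = 6.6e-04). In S+HL+HS the difference was -1.64 (SE 0.264, limma adjusted p = 0.00314). Such negative differences were called for 5.93% of genes in HL+HS and 1.69% in S+HL+HS. The differences for S+HL (-0.43) and S+HS (-0.54) were not called (limma adjusted p = 0.565 and 0.17). A sum on a log scale multiplies fold changes, so these values say that the combined fold was smaller than the product of the single folds.

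bHLH27 stood at lower FPKM than bHLH35 in Col0, and its 4 highest means were those with salt. In Col0 Control it held 3.603, 2.41 and 3.71 FPKM. Salt alone gave 18.2, 14.8 and 7.48 FPKM, a wide spread in which the lowest library still lay above every Control library. High light gave 10.1, 4.23 and 7.96 FPKM, and heat gave 7.18, 6.37 and 6.32 FPKM. Light and heat alone therefore stood above Control too, at a lower level than most salt libraries. S+HL gave 11.8, 17.7 and 19.3 FPKM, the highest mean. S+HS gave 14.5, 11.8 and 11.2 FPKM, and S+HL+HS gave 10.3, 10.3 and 14.8 FPKM. HL+HS, the combination without salt, gave 6.21, 8.10 and 7.85 FPKM, below all 9 libraries that combined salt with another stress.

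The means of bHLH27 in Col0 ran from 3.24 ± 0.719 FPKM in Control to 16.3 ± 3.92 FPKM in S+HL (SD, n = 3), a ratio of 5.02. The limma log2 change was 1.70 in salt (SE 0.272, adjusted p = 2.3e-04), 0.94 in high light (adjusted p = 0.021) and 0.86 in heat (adjusted p = 0.021). The pairs of stresses gave 0.99 (HL+HS), 1.68 (S+HS) and 2.01 (S+HL), and all 3 together gave 1.59, with limma adjusted p-values from 9.3e-06 to 0.00906. All 7 were called higher, with the shares of all genes called higher given above for bHLH35. The calls in HL and HS rested on single libraries. Without HL replicate 1 the HL change was 0.70 (limma adjusted p = 0.0988), and without HL replicate 3 it was 0.86 (0.0758). Without Control replicate 2 the HL change was 0.79 (0.0887) and the HS change 0.71 (0.0899). Without HS replicate 1 the HS change was 0.81 (0.0596).

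**Figure D2:**
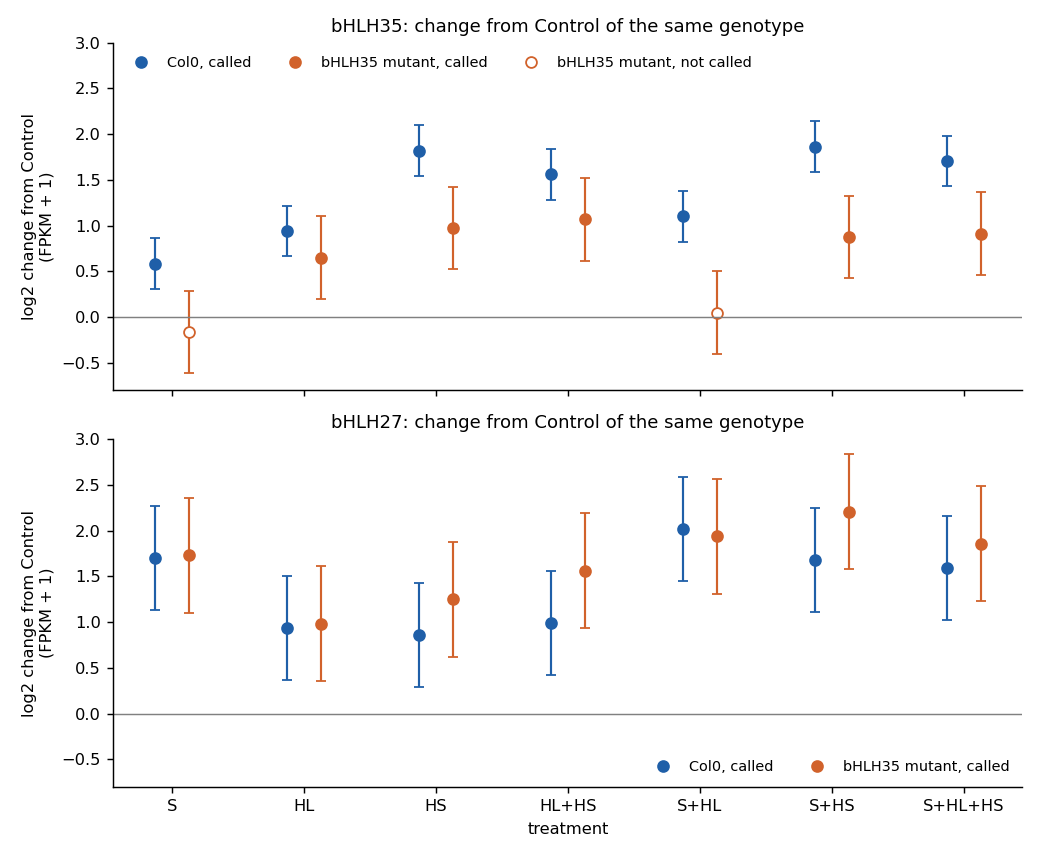
Log2 change from Control of the same genotype (y axis, log2(FPKM + 1)) for bHLH35 (top) and bHLH27 (bottom) in the 7 stress treatments (x axis). Points are limma estimates, bars are 95% intervals and open points were not called; the changes of bHLH27 lie between 0.86 and 2.21 in both genotypes, whereas those of bHLH35 in the mutant are at -0.16 in S and 0.05 in S+HL.

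In order of mean level, Col0 bHLH27 ran Control, HS, HL+HS, HL, S+HL+HS, S+HS, S and S+HL. The 4 treatments with salt thus took the 4 highest places. Only the step from Control to HS was called among the 7 steps between neighbours. The step from HL to S+HL+HS, where salt and heat both enter, was not (log2 0.65, adjusted p = 0.11). Of the 28 pairs, 15 were called.

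Salt gave bHLH27 a mean log2 difference of 1.05 (SE 0.136, limma adjusted p = 3.8e-06), against 0.32 for light (adjusted p = 0.0851) and 0.12 for heat (adjusted p = 0.51). The last 2 were not called, and the 95% interval for heat ran from -0.17 to 0.40. Salt added to HL gave 1.08 (limma adjusted p = 0.0119) and salt added to HS gave 0.82 (adjusted p = 0.037), steps in which 9.29% and 14.4% of genes were called higher. Both calls were weak. The step from HL was not called with only the contrasted groups (adjusted p = 0.0766), nor without HL replicate 2 (0.77, 0.093), S+HL replicate 2 (1.01, 0.0554) or S+HL replicate 3 (0.95, 0.0591). The step from HS was not called without a filter on low values (0.0575), nor without any 1 of its 6 libraries (0.72 to 0.89, adjusted p = 0.0518 to 0.112). Salt added to HL+HS gave 0.60 and was not called (adjusted p = 0.127). Heat added to S, HL or S+HL gave -0.03, 0.05 and -0.42, none of them called (limma adjusted p = 0.956, 0.93 and 0.362). No combination departed from the sum of its single stresses by a called amount. The largest departure was -1.91 in S+HL+HS (SE 0.544, limma adjusted p = 0.0643), which was called at -2.26 with a pseudocount of 0.1 (adjusted p = 0.0488).

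**Figure D3:**
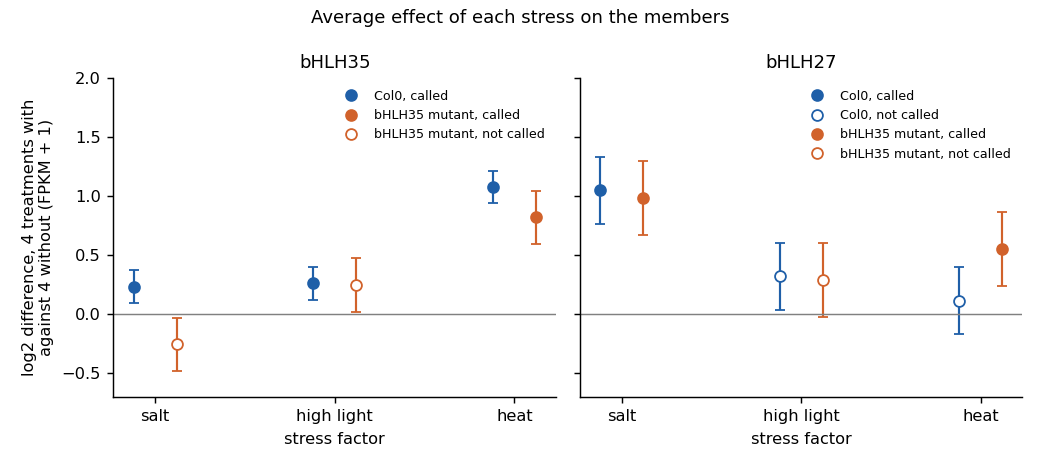
Mean log2 difference between the 4 treatments with a stress and the 4 without it (y axis) for salt, high light and heat (x axis), for bHLH35 (left) and bHLH27 (right). Points are limma estimates with 95% intervals, filled where called; in Col0 bHLH35 has its largest value for heat (1.08) and bHLH27 for salt (1.05).

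Some root markers rose in treatments in which bHLH27 rose, so their values belong beside it. The markers were PYK10 (a beta-glucosidase of root endoplasmic reticulum bodies), CASP1 (a protein of the endodermal Casparian strip), and COBL9 and EXPA7 (both of root hairs). In Col0 all 4 were called higher in S and in S+HL, and 3 of 4 where salt was combined with heat, light present or not. Of all genes, 13.6% (S), 23.2% (S+HL), 26% (S+HS) and 23.6% (S+HL+HS) were called higher. Their median change in S was 1.71, where the median of all genes tested was 0.10. CASP1 rose from 18.3 ± 2.27 FPKM in Control to 76.7 ± 19.8 FPKM in salt (SD, n = 3). The summed FPKM of the 4 ranged from 1671 to 2031 in Control libraries and from 2719 to 4231 with salt alone. It was 2702 to 3012 in S+HL, 2185 to 2811 in S+HS and 1840 to 2868 in HL. In S+HL+HS it was 1685 to 2190, which overlapped Control. The mean sum was lower in HS (1575) and HL+HS (1326) than in Control (1805), although bHLH27 rose there. Over the 24 Col0 libraries, the correlation of bHLH27 with CASP1 was 0.877, with EXPA7 0.847, with COBL9 0.778 and with PYK10 0.576. These points share 8 treatments and their libraries. The same markers followed bHLH35 less closely, from -0.32 for PYK10 to 0.67 for EXPA7. CASP1 and EXPA7 were also called higher in HL, HS and HL+HS, where bHLH27 rose as well, and PYK10 was called lower in HL+HS. The median change of the 4 was 0.90 in HL, 0.48 in HS and 0.66 in HL+HS. Their part in the rise of bHLH27 was not tested. Seed-storage transcripts (CRU3, CRA1 and SESA1), a sign of dry-seed RNA, summed to at most 75.0 FPKM, in a Col0 Control library.

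Because FPKM is per length, the members were compared within each library. The lengths used are not given, and annotated transcripts span 711 to 2351 bases for bHLH35 and 915 to 2780 for bHLH27. The size of the ratio, and which side of 1 it lies on, therefore depend on those lengths. In the mutant the part of the bHLH35 transcript that remained is also not known. In Col0 bHLH35 exceeded bHLH27 in all 24 libraries. The ratio of their FPKM was 7.40 in Control (6.10 to 8.64 over 3 libraries) and 12.99 in heat (10.5 to 14.8). It was 2.90 in salt (2.34 to 3.96) and 3.23 in S+HL (2.98 to 3.66). The heat libraries thus lay above all Control libraries, and the S and S+HL libraries below them. HL+HS had a ratio of 9.81 (8.20 to 12.3), which overlapped Control. With salt and heat together the ratio was 7.06 (S+HS) or, with light as well, 6.85, and in HL it was 7.06, all 3 groups overlapping Control. In an exact two-sided permutation test of the log2 ratio the differences for S, HS, HL+HS and S+HL reached p = 0.1, the smallest that 3 against 3 allows. The difference from Control was -1.12 for S, 0.96 for HS, 0.57 for HL+HS and -0.91 for S+HL (log2 of the ratio of FPKM + 1). With a pseudocount of 0.1 the HL+HS difference was 0.42, with an exact p of 0.2. In the mutant the ratio was 2.08 in Control, 0.394 in S, 0.403 in S+HL and 0.630 in S+HS. In mutant S, S+HL and S+HS the FPKM of bHLH27 stood above that of bHLH35 in every library. In mutant S+HL+HS, HS and HL+HS the libraries lay on both sides of 1. The mutant HS difference from Control was -0.28 (exact permutation p = 0.6), without the rise seen in Col0.

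**Figure D4:**
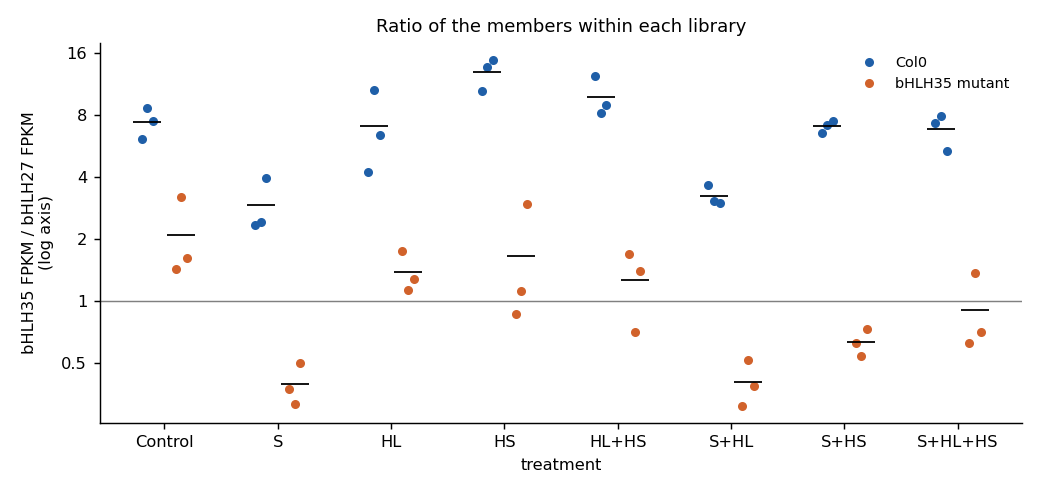
Ratio of bHLH35 to bHLH27 FPKM within each library (y axis, log axis) by treatment (x axis), with black marks at the mean of 3 libraries. The Col0 ratio spans 2.34 to 14.8 and the mutant ratio 0.309 to 3.20, with all mutant S, S+HL and S+HS libraries below 1.

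Across the 24 Col0 libraries the Pearson correlation of the members was 0.437 on the log2(FPKM + 1) scale, and the Spearman correlation was 0.22. It ranked 3043rd for bHLH35 among 14122 genes with a mean of at least 5 FPKM. Within the 12 Col0 libraries without salt it was 0.712, and within the 12 with salt it was 0.048. Over the 24 mutant libraries it was 0.223. The members thus ran more closely together in the libraries without salt, a difference that was not tested. The libraries of a treatment share that treatment, so these are descriptions.

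In the mutant the bHLH35 transcript was low and still present in every library. Control libraries held 5.68, 4.90 and 3.28 FPKM, against 20.9 to 27.7 FPKM in Col0. Salt gave 3.39, 4.69 and 3.81 FPKM, high light 7.94, 5.84 and 9.65 FPKM, and heat 8.57, 8.93 and 12.4 FPKM. HL+HS gave 14.6, 7.78 and 10.4 FPKM, and S+HL gave 4.21, 6.10 and 4.02 FPKM. No mutant library reached the lowest Col0 Control library. S+HS gave 9.90, 8.95 and 8.56 FPKM, and S+HL+HS gave 8.08, 10.2 and 10.1 FPKM.

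The mutant mean was 19.6% of the Col0 mean in Control and 9.26% in S+HL, with the other treatments between these. The limma log2 difference was -2.14 in Control (SE 0.181, adjusted p = 6.9e-10) and -3.19 in S+HL (SE 0.181, adjusted p = 6.4e-15). It was called lower in all 8 treatments, where few of the 21357 genes were. The share of genes called lower was 0.183% in Control and 0.0187% in S, and in the others without salt it was 0.178% (HL), 0.0656% (HS) and 0.108% (HL+HS). With salt in combination it was 0.0609% (S+HL), 0.014% (S+HS) and 0.0187% (all 3 stresses). Over all 8 treatments the difference was -2.79 (SE 0.064, adjusted p = 2.5e-28), the lowest p and the most negative change of all genes tested, where 4.75% were called lower. Genotype and deposited table coincide, so a difference in how the tables were made cannot be told apart from the genotype. The median difference of all genes over the 8 treatments was -0.02. FPKM are values of the whole gene and do not say which part of the transcript remained in the mutant.

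What remained of the bHLH35 transcript in the mutant still changed with heat. It was called higher than mutant Control in 5 treatments: HL (log2 0.65, limma adjusted p = 0.0437), HL+HS (1.07, 8.0e-04), HS (0.97, 0.00201), S+HL+HS (0.91, 0.00199) and S+HS (0.87, 0.00275). The shares of genes called higher in these were 8.1%, 10.7%, 14.1%, 23.9% and 28.3%. It was not called in S (-0.16, adjusted p = 0.626) or S+HL (0.05, adjusted p = 0.891), where mutant groups overlapped Control. The call in HL was lost without any filter on low values (adjusted p = 0.0611), and it was lost without Control replicate 2 (0.70, 0.0727), Control replicate 3 (0.47, 0.199), HL replicate 1 (0.63, 0.0815) or HL replicate 3 (0.50, 0.188). The mean heat difference was 0.82 (SE 0.108, limma adjusted p = 4.0e-06), where 17.4% of genes were called higher. The mean salt difference was -0.26 (SE 0.108, adjusted p = 0.0523), and with median-of-ratios scaling it was -0.42 and called (adjusted p = 0.00349).

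In order of mean level, bHLH35 in the mutant ran S, Control, S+HL, HL, S+HS, S+HL+HS, HS and HL+HS. None of the 7 steps between neighbours was called, and the largest, from S+HL to HL, was 0.60 (limma adjusted p = 0.0527). The 4 treatments with heat again took the 4 highest places. Of the 28 pairs, 14 were called, where the share of all genes called in a pair of mutant treatments had a median of 27% and ran from 2.6% to 51.5%.

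The fold responses of bHLH35 were smaller in the mutant than in Col0 in all 7 stresses on this scale, but no difference between the responses was called. The difference of log2 changes, mutant less Col0, was -1.05 in S+HL (SE 0.256, unadjusted p = 2.2e-04, limma adjusted p = 0.657). In S+HS it was -0.99 (limma adjusted p = 1) and in HS -0.85 (adjusted p = 1). The remaining 4 lay between -0.80 and -0.29. For the mean effect of salt the difference was -0.49 (SE 0.128, limma adjusted p = 0.178). In these contrasts 0 to 5 genes of 21357 were called in a treatment, with 629 to 1207 genes at an unadjusted p under 0.05, so few genes reached the threshold. Adding 1 to FPKM shrinks changes at the low level of the mutant more than those of Col0, and with a pseudocount of 0.1 the difference was -1.07 in S+HL and -0.22 in HL.

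In the mutant bHLH27 overlapped Col0 in every treatment, and no difference was called. Mutant Control libraries held 4.002, 1.53 and 2.02 FPKM, against 2.41 to 3.71 FPKM in Col0. Salt gave 9.15, 14.98 and 7.65 FPKM, high light 4.55, 5.19 and 7.61 FPKM, and heat 9.96, 7.998 and 4.20 FPKM. HL+HS gave 8.70, 11.02 and 7.44 FPKM, and S+HL gave 13.6, 11.9 and 10.4 FPKM. All of these groups lay across the range of Col0. S+HS gave 15.9, 16.5 and 11.8 FPKM, and S+HL+HS gave 13.03, 7.43 and 14.3 FPKM, which overlapped Col0 as well.

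The mutant mean of bHLH27 was between 73.5% (S+HL) and 123% (HL+HS) of the Col0 mean. No treatment gave a called difference, with log2 differences from -0.39 to 0.25 and limma adjusted p-values of at least 0.827. Over all 8 treatments the difference was -0.10 (SE 0.105, limma adjusted p = 0.713), with a 95% interval from -0.31 to 0.12. A mean rise of bHLH27 in the mutant above 0.12 on the log2 scale lies outside that interval, which takes the libraries as unpaired. Root markers were lower in the mutant: over the 8 treatments PYK10 (-0.46, limma adjusted p = 3.8e-05), CASP1 (-0.67, 4.1e-05) and EXPA7 (-0.48, 0.032) were called lower, and COBL9 was not. Of all genes, 4.75% were called lower in this comparison. The EXPA7 call was narrow and was lost without any 1 of several libraries of either genotype. Its highest adjusted p was 0.0591, without Col0 HL+HS replicate 3. Whether the lower root markers bear on the comparison of bHLH27 was not tested.

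Stress raised bHLH27 in the mutant too. The limma log2 change from mutant Control was 1.73 in S (adjusted p = 2.6e-04), 0.98 in HL (0.0289), 1.25 in HS (0.0038) and 1.56 in HL+HS (5.3e-04). With salt in combination it was 1.94 (S+HL), 2.21 (S+HS) and 1.86 (all 3 stresses), with limma adjusted p-values from 7.7e-06 to 5.7e-05. All 7 were called higher, and no stress group overlapped mutant Control. Of all genes, 19.3% were called higher in S, 8.1% in HL, 14.1% in HS and 10.7% in HL+HS. With salt in combination the share was 24.8% (S+HL), 28.3% (S+HS) and 23.9% (all 3 stresses). Without Control replicate 2 the change in HL was 0.78 (adjusted p = 0.132), without Control replicate 3 it was 0.91 (0.0907), without HL replicate 2 it was 1.04 (0.0612) and without HL replicate 3 it was 0.80 (0.13).

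The mean effect of salt on bHLH27 in the mutant was 0.99 (SE 0.151, limma adjusted p = 1.8e-05), where 41.5% of genes were called higher. Heat gave 0.56 (SE 0.151, adjusted p = 0.00498), a call that Col0 did not give, and light gave 0.29 (adjusted p = 0.144). The test of the difference between the genotypes in the heat effect gave 0.44 (unadjusted p = 0.0436, limma adjusted p = 1), so the heat effects were not shown to differ. In order of mean level, the mutant ran Control, HL, HS, HL+HS, S, S+HL+HS, S+HL and S+HS, again with salt in the 4 highest places. Only the step from Control to HL was called between neighbours (log2 0.98), and 11 of 28 pairs were called.

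AT5G57140 (PAP28, a purple acid phosphatase) ends 496 bases before bHLH35 on the same strand, and of the 10 neighbouring genes it had the closest pattern. Its correlation with bHLH35 was 0.885 over 24 Col0 libraries and 0.739 over 24 mutant libraries. In Col0 Control it held 6.58, 5.53 and 6.32 FPKM and in HL+HS 16.7, 15.2 and 19.2 FPKM, with no overlap. It was called higher in the 4 Col0 treatments with heat: HS (log2 1.35, limma adjusted p = 7.5e-05), HL+HS (1.34, 1.2e-04), S+HL+HS (1.14, 3.1e-04) and S+HS (1.08, 4.1e-04). Like bHLH35 it was lower in the mutant, by a smaller amount. The log2 difference over 8 treatments was -0.68 (SE 0.080, limma adjusted p = 3.2e-07), and in HL+HS it was -1.04 (adjusted p = 0.0428). The HL+HS call was weak. It was lost with median-of-ratios scaling (-0.95, adjusted p = 0.0865), no filter on low values (0.0598), the replicate block (0.052) or only the contrasted groups (0.322). It was also lost without Col0 HL+HS replicate 2 (0.0662) or 3 (-0.96, 0.464), or without any 1 of the mutant HL+HS libraries (0.0624 to 0.176). In the other 7 treatments the difference was not called. The reason was not tested.

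**Figure D5:**
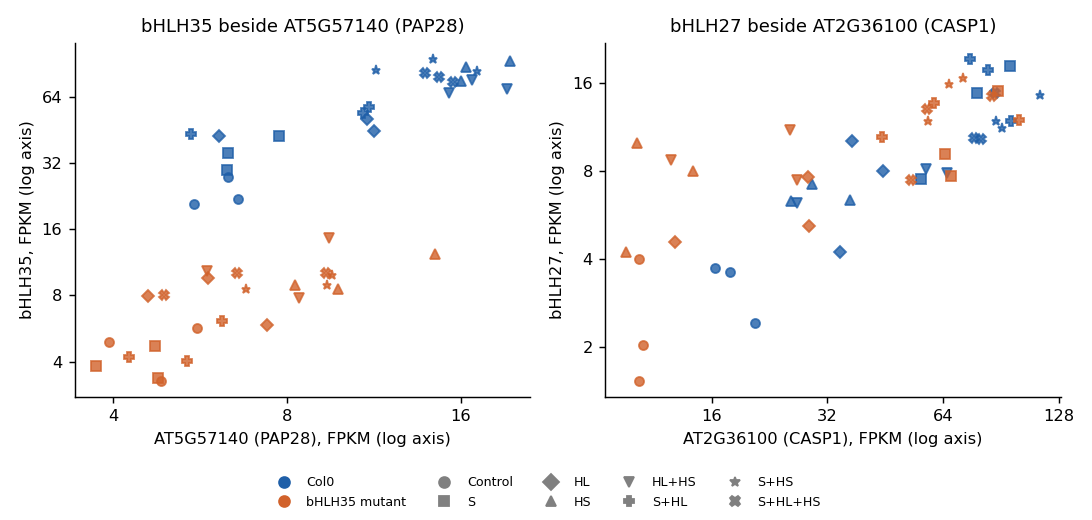
Each point is a library. Left, FPKM of bHLH35 (y axis) against FPKM of its upstream neighbour AT5G57140; right, FPKM of bHLH27 (y axis) against FPKM of the root marker CASP1 (AT2G36100); all axes are log axes, colour is genotype and symbol is treatment. In Col0 AT5G57140 is at 5.53 to 6.58 FPKM in Control and 15.2 to 19.2 FPKM in HL+HS, and CASP1 averages 18.3 FPKM in Control and 76.7 FPKM in salt.

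Among the other neighbours of bHLH35, 9 of 10 passed the filter on low values, AT5G57140 included. In Col0, 4 of the 9 were called higher and 1 lower in HS, and 2 higher and none lower in S. Of all genes, 15% were called higher and 15.7% lower in HS, and 13.6% higher and 5.17% lower in S. AT5G57170 ran opposite to bHLH35 (correlation -0.829 in Col0) and was called lower in HS by a log2 change of -0.82 (limma adjusted p = 3.7e-05). AT5G57110 (ACA8, a plasma membrane calcium pump) was called lower in the mutant over 8 treatments by -0.17 (adjusted p = 0.0115). AT5G57140 and AT5G57110 were the 2 neighbours called lower over the 8 treatments, and none was called higher. Of all genes, 4.75% were called lower and 0.843% higher in that comparison. For bHLH27, 8 of 10 neighbours passed the filter, at most 1 was called higher and at most 3 lower in any Col0 stress, and none was called between the genotypes over the 8 treatments. The 3 called lower were in HL+HS, S+HL+HS and S+HS, where 19.4%, 16.3% and 18.9% of all genes were called lower.

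A chosen list of other bHLH genes was set beside the members. The list held 12 genes, of which 10 passed the filter in Col0. AMS and DYT1, regulators of tapetum and pollen development, stayed under 1 FPKM in all 48 libraries. FIT, the regulator of iron uptake in roots, rose with salt in Col0 (mean salt difference 1.03, limma adjusted p = 2.5e-05), from 1.82, 4.48 and 5.004 FPKM in Control to 12.5, 14.4 and 9.18 FPKM in S. bHLH93 (0.83, adjusted p = 2.5e-04) and MYC2, a regulator of jasmonate responses (0.67, 0.00144), rose with salt too. Over the 24 Col0 libraries FIT (0.79), bHLH93 (0.72) and MYC2 (0.69) correlated with bHLH27, and FAMA ran opposite to it (-0.84). With bHLH35 the correlations were 0.18 for FIT, 0.09 for bHLH93 and 0.22 for MYC2, the highest of the list. FAMA (-0.87, adjusted p = 3.7e-08) and SPCH (-0.79, 3.1e-06), which act in stomatal development, fell with salt. Their partners ICE1 (-0.21, 0.00122) and SCRM2 (-0.53, 2.1e-05) fell as well.

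Of the 10, 3 were called higher and 4 lower for salt in Col0, with a median of -0.28 against 0.11 for all genes, of which 33.4% were called higher and 12.5% lower. For heat, 1 was called higher (SPCH, 0.25, limma adjusted p = 0.0484) and 3 lower (SCRM2, FAMA and ICE1), with a median of -0.17 against -0.06 for all genes, of which 18.8% were called higher and 28.5% lower, shares near those of the list. None of the 10 was called higher in Col0 HS against Control, where 15% of all genes were and bHLH35 rose by 1.82. Between the genotypes, FIT (-0.49, SE 0.104, limma adjusted p = 0.0031) and NAI1, a regulator of endoplasmic reticulum bodies (-0.32, SE 0.092, adjusted p = 0.0305), were called lower in the mutant over the 8 treatments. Of all genes, 4.75% were called lower in this comparison, and so were 3 of the 4 root markers. Whether the lower root markers bear on FIT and NAI1 was not tested. The NAI1 call was narrow and was lost without any 1 of several libraries of either genotype. The highest adjusted p was 0.0564, at -0.29 without mutant S replicate 3. None of the 10 was called in any treatment taken alone.

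The genes whose Col0 pattern was most like bHLH35 had correlations of 0.963 to 0.970 over 24 libraries. They were AT4G23885, ECA4 (a calcium pump), PHB3 (a mitochondrial prohibitin), c-NAD-MDH2 (a cytosolic malate dehydrogenase) and CPN10 (a mitochondrial co-chaperonin). AT4G23885 went from a mean of 18.8 FPKM in Control to 85.0 FPKM in HS and 127 FPKM in S+HS. CPN10 went from 56.2 FPKM in Control to 328 FPKM in HS. In the mutant their correlations with the residual bHLH35 transcript were 0.660 to 0.783. The most opposite genes were ALDH6B2 (-0.969, a mitochondrial aldehyde dehydrogenase), GR (AT3G54660, a glutathione reductase, -0.963) and F2KP (a regulator of sugar phosphates, -0.959). ALDH6B2 went from 57.5 FPKM in Control to 22.1 FPKM in HS.

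For bHLH27 the highest correlations were 0.922 to 0.939, with FLS3 (AT5G63590, of the flavonol synthase family), AT1G72230, 4CL5 (a 4-coumarate:CoA ligase), AGP2 (an arabinogalactan protein) and IRX1 (a cellulose synthase subunit of secondary walls). FLS3 went from a mean of 4.84 FPKM in Control to 19.5 FPKM in S and 9.12 FPKM in HS. AGP2 went from 33.0 FPKM in Control to 144 FPKM in S. In the mutant these correlations were 0.753 to 0.858. The most opposite genes were RTFL17 (a small peptide of the ROTUNDIFOLIA family, -0.903), CRY1 (a blue light receptor, -0.886) and AT2G05540 (-0.885). The choice of these genes depends on the measure. By Spearman correlation 2 of the 5 genes most like bHLH35 and 0 of the 5 most like bHLH27 were again among the first 5, and by the 8 treatment means 2 and 1 were.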

How the data were processed

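RNA was sequenced from 48 seedling libraries, in groups given by their titles. Per the labels, paired-end reads of 150 bases from a NovaSeq 6000 were trimmed with Trim Galore 0.6.4 and examined with FastQC 0.11.9. HISAT2 2.2.1 and TAIR10 are listed in the submitters' processing notes. The authors deposited FPKM in 1 table per genotype. The FPKM tool, annotation, strand setting and treatment of shared reads are not given in the sources used here. An identifier on several lines (2 of 32824) was left out.

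Values were taken as log2(FPKM + 1), a scale on which changes of low genes come out smaller. Genes reaching 1 FPKM in at least 3 libraries were tested with limma 3.58.1 (trend, two-sided, R 4.3.3) and called at a Benjamini-Hochberg adjusted p under 0.05 over all genes: 20742 in Col0, 20674 in the mutant and 21357 over both. The fit was tested on simulated data. The members and lists were chosen with earlier results of these data known. The genes named are the members, 12 other bHLH genes, tissue markers, 5 neighbours each side, and the 5 highest and 3 lowest correlations per member among genes with a mean of at least 5 FPKM. Sequences are RefSeq, TAIR10.1. The alternatives changed the pseudocount, filter, scaling, trend, block, groups or libraries. Depth was estimated from the steps of low FPKM, and the counting errors derived from it cover counting only.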

Additional observations from a re-analysis of the deposited data

How the results depend on the processing

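Every stress response, mean effect, departure and genotype difference was recomputed under each alternative, with changes on the log2 scale and limma adjusted p-values. For bHLH35 in Col0, all 7 stress calls kept their direction and side of the threshold, and so did all 8 genotype calls of bHLH35. For bHLH27 all genotype differences stayed uncalled. The results that reversed were uncalled before and after, and the cause of each change below was not tested.

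With a pseudocount of 0.1 the S+HL+HS departure of bHLH27 was called in Col0 (-2.26) and in the mutant (-2.66), and the difference between genotypes in its S+HL response (0.0225) and that in the light effect of bHLH35 (0.018) changed sign. With a mean of at least 5 FPKM required, the same departure was called at -1.91 in Col0 and -2.11 in the mutant.

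With median-of-ratios scaling, which brought the all-gene median of the salt effect from 0.11 to -0.0037 in Col0 and from 0.15 to -0.005 in the mutant, the salt effect of bHLH35 in Col0 lost its call (0.11). The light effect of bHLH27 in Col0 (0.35) and the salt (-0.42) and light (0.35) effects of bHLH35 in the mutant gained one. These uncalled values changed sign: in Col0, S to S+HS of bHLH27 (0.018), HS to S+HS of bHLH35 (-0.048) and HL+HS to S+HL+HS of bHLH35 (-0.033); in the mutant, the S+HL response of bHLH35 (-0.053); between the genotypes, bHLH27 in S+HL+HS (0.015), its S response (-0.0066), and the light effects of bHLH35 (0.053) and bHLH27 (0.035).

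With only the contrasted groups, HL lost its call for bHLH27 in Col0 (0.94, adjusted p = 0.0899) and in the mutant (0.98, 0.0639), and for bHLH35 in the mutant (0.65, 0.103). So did the Col0 steps HL to HL+HS of bHLH35 (0.62, 0.0885) and HL to S+HL of bHLH27 (1.08, 0.0766), while HL+HS to S+HL+HS of bHLH27 gained a call (0.60, 0.0495). The call of bHLH35 in mutant HL was also lost with no filter on low values (0.65, 0.0611).

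Leaving out each library in turn changed the call or sign of these, given as ranges. In Col0, bHLH27 had 0.70 to 1.25 in HL, 0.71 to 0.94 in HS, 0.24 to 0.40 for the light effect, -2.26 to -1.61 for the S+HL+HS departure, -0.26 to 0.29 from HL to HL+HS and -0.37 to 0.22 from S to S+HS, and bHLH35 had -0.043 to 0.11 from HS to S+HS. Called steps lost in this way were S+HL to HL+HS of bHLH35 (0.34 without S+HL replicate 1), HL to S+HL of bHLH27 (0.77 to 1.01 where lost) and HS to S+HS of bHLH27 (0.72 to 0.89 where lost). In the mutant, bHLH35 had 0.47 to 0.82 in HL, -0.14 to 0.18 in S+HL, -0.31 to -0.20 for the salt effect, 0.20 to 0.30 for the light effect and -0.072 to 0.25 for the S+HS departure. There bHLH27 had 0.78 to 1.27 in HL and -2.68 to -1.70 for the S+HL+HS departure. Between the genotypes, bHLH27 had -0.15 to 0.38 in HS and -0.22 to 0.22 in S+HL+HS. Its response differences were -0.32 to 0.31 in S, -0.26 to 0.33 in HL, -0.28 to 0.21 in S+HL, -0.15 to 0.013 for the salt effect and -0.11 to 0.052 for the light effect, and the light effect of bHLH35 differed by -0.066 to 0.038.

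Deviations of same-numbered libraries correlated above 0.1 in 5 of 84 pairs of Col0 groups and 15 of 84 of mutant groups. Between the genotypes 34 of 192 same-numbered pairs did so, with a median r of -0.001 and a range from -0.382 to 0.457. These pairs mix same and different treatments, so their median does not describe pairs of the same treatment. Pairs of the same treatment were not examined apart from the rest, so pairing across the genotypes within a treatment was not tested. AT4G29950, a neighbour of bHLH27, held 42.5, 27.4 and 27.9 FPKM in Col0 HS and 46.2, 25.6 and 25.1 in mutant HS. Its Control libraries ran in opposite orders, at 49.5, 39.1 and 37.4 in Col0 and 38.9, 45.3 and 45.4 in the mutant. The genotype differences took the libraries as unpaired. A replicate block gives a number the same shift in every treatment, so it cannot take up such pairing. With the replicate block, bHLH35 in mutant HL was not called (0.65, adjusted p = 0.0577), and no other call of the members changed.

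Counts of all genes called moved by over 1.5 times in several comparisons. With only the contrasted groups, Col0 HL called 1601 genes instead of 3671, mutant HL 2352 instead of 3595, mutant HS 3556 instead of 5973, and the Col0 HL+HS departure 672 instead of 1926. For the mutant against Col0 the counts ran from 7 to 104 in Control (44 as reported), 43 to 100 in HL (89), 3 to 28 in HS (16), 7 to 59 in HL+HS (29) and 21 to 56 in S+HL (41).

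Genotype and deposited table coincide, whether counting used strand is not given, and 3 libraries a group limit precision. Low bHLH27 values in the mutant rest on few fragments.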
